A study of Mus musculus with 6 samples.

Results

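The comparison set 1 array of Glivec-treated Ba/F3 cells carrying FIP1L1-PDGFRA against 1 array of Glivec-treated Ba/F3 cells carrying an empty vector, so that the drug was on both sides. These 2 arrays were taken by their labels from a series of 6 Affymetrix mouse expression arrays. Ba/F3 cells, a pro-B line of the mouse, depend on interleukin 3 (IL3) for survival and growth, and an active tyrosine kinase can free them of that need. The cells with FIP1L1-PDGFRA had been selected, had no IL3 and received 100 nM Glivec (imatinib), a kinase inhibitor, for 4 h. They are called treated fusion cells below. The cells with the pMSCV retroviral vector were kept in IL3 and received the same dose for the same time, and they are called treated IL3 cells below. The other arrays were the untreated FIP1L1-PDGFRA cells, the untreated vector cells in IL3, and ETV6-PDGFRB cells with and without the drug. All lines were grown in 10% serum, and 5 µg of RNA was labelled for each array. The labels do not say whether a line was a clone or a pool. The pair differed in the fusion gene, in the selection and in the supply of IL3, and these cannot be told apart.

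FIP1L1-PDGFRA is a fusion found in chronic eosinophilic leukaemia, in which the PDGFRA kinase is always active, and imatinib blocks that kinase. IL3 acts through a receptor with no kinase of its own, which works through JAK2, STAT5, the RAS-ERK pathway and PI3K, and an active PDGFRA kinase feeds many of the same pathways. A fusion cell given the drug has no IL3 in place of its kinase, while a vector cell given the drug still has IL3.

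Each gene was read from 1 probe set as a MAS5 signal on a linear scale, and all arrays had been scaled to a common level. Signals under a floor of 20.1, close to the median signal of an array, were set to the floor, and a fold with 1 array under it is written as at least that size. With 1 array in each group there was no replicate and no test, so every fold below is a description of these arrays. The nearest measure of how far arrays of one line lie apart was the vector line with over without the drug, in which 95% of log2 ratios lay between -0.38 and 0.42 and 9 of 6674 genes (0.135%) passed 2-fold. As a sign of RNA quality, the signal of 3′ over 5′ probe sets was 1.22 in treated fusion cells and 1.15 in treated IL3 cells for actin, and 0.802 and 0.782 for Gapdh.

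The label of a pro-B line rested on few markers on these arrays. Of 23 B lineage markers with a probe set, 15 were below the floor on all 6 arrays, among them Pax5, Ebf1, Rag1, Rag2, Vpreb1, Dntt and Blnk. The B-cell receptor signalling genes Cd79a and Cd79b were present at low levels, with Cd79b at 78.4 in treated fusion cells and 45.3 in treated IL3 cells. Btk, of the same list, went the other way, at 256 against 392. Of 8 measured members 6 had log2 ratios above 0 and 2 below. The summed signal of the B list was 1509 in treated fusion cells and 1346 in treated IL3 cells, of which Ptprc gave 892 and 660. The receptor genes Pdgfra, Pdgfrb and Kit of the mouse were below the floor on all 6 arrays, and Fip1l1 was 127 in treated fusion cells and 134 in treated IL3 cells. Whether these mouse probe sets can detect a human fusion transcript is not known, so they check no label.

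Past the 2-fold limit in treated fusion cells were 312 of 6758 measured genes (4.62%), with 151 higher than in treated IL3 cells (2.23%) and 161 lower (2.38%). The lower side held the STAT5 target Cish, the kinase gene Pim1, Myc and genes of ribosome production, and the higher side held interferon-stimulated genes, FOXO target genes such as Ccng2, and the erythroid regulator Klf1. Of the higher genes 25 and of the lower genes 15 had 1 array below the floor. The SD of the log2 ratios was 0.48, against 0.19 in the vector line with over without the drug. In RNA of bulk cultures a gene that is lower in every cell and fewer cells that express it cannot be told apart. At 4-fold 19 genes were higher and 11 lower. Genes lay densely at the limit, with 82 at a fold between 1.9 and 2.0 and 51 between 2.0 and 2.1. Scaling to the hybridization controls moved the median log2 ratio of all genes to -0.09, against 0.02 as deposited, and gave 114 higher and 214 lower genes, so that 34.8% of the genes past 2-fold were higher, against 48.4%.

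**Figure D1:**
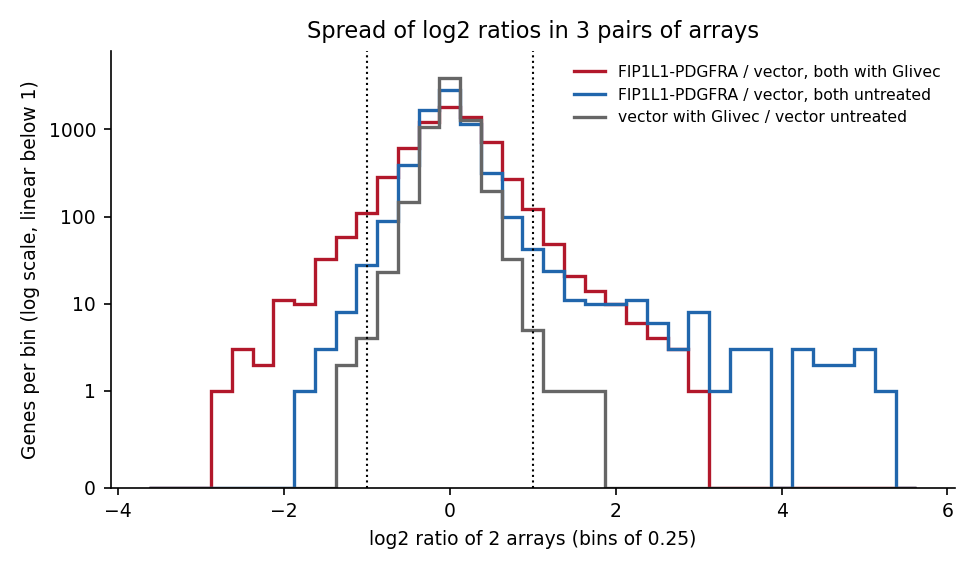
Number of genes (vertical axis, log scale, linear below 1) by log2 ratio in bins of 0.25 (horizontal axis) for 3 pairs of arrays: FIP1L1-PDGFRA over vector with Glivec on both sides (red), the same without Glivec (blue), and the vector line with over without Glivec (grey). Dotted lines mark 2-fold. The red curve is wide on both sides, the blue curve has its long tail on the higher side, and the grey curve has 9 genes past 2-fold.

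The targets of STAT5 and cytokine signalling were lower in treated fusion cells. Of 22 measured members 9 were at least 2-fold lower and 0 at least 2-fold higher, with a median log2 ratio of -0.80, against 0.02 over all genes. Cish, a STAT5 target that dampens cytokine receptors, had a signal of 62.2 in treated fusion cells and 297 in treated IL3 cells, a 4.78-fold lower level. Without the drug Cish was the higher of the pair in fusion cells, at 552 against 309 in IL3 cells. Its promoter is shown because it holds the TTCNNNGAA pattern that STAT dimers bind, 2 times within 20 bases, in capitals below. Among the lower members of this list 1 of 7 promoters held the pattern, that of Cish. It stood in 8.52% of the promoters of all lower genes, in 6.79% of those of measured genes and in 8.30% of all promoters. The stretch is chr9:107296409-107296708 of GRCm38.p6 on the plus strand, from 250 bases before to 50 after the RefSeq gene start, and the matches begin at bases 251 and 262 of it.
Cish: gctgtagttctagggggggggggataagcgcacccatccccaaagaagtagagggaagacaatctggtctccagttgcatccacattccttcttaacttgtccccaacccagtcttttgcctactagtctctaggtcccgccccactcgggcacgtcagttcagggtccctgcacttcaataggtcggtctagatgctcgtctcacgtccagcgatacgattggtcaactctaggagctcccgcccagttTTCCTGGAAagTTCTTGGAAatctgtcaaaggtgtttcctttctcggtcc
Apart from Socs1, described next, the other lower members were under 2-fold apart in the untreated pair. Pim1, a survival kinase induced by cytokines, was 79.1 in treated fusion cells and 314 in treated IL3 cells, and 280 in untreated fusion cells against 341 in untreated IL3 cells. Id1, an inhibitor of differentiation factors, had the lowest ratio at the floor used and was 63.5 against 418, and 361 against 418 without the drug. The related gene Id2 was 54.8 in treated fusion cells and 186 in treated IL3 cells. The D-type cyclin gene Ccnd2 was 361 against 957, and the IL4 receptor gene Il4ra was 37.0 against 112. Ccnd2 had 7 measured probe sets, with log2 ratios from -1.86 to -0.25. Not every member was lower by that much. Socs2 was 130 in treated fusion cells and 180 in treated IL3 cells, Mcl1, a survival gene of the BCL2 family, was 539 against 730, and Rgs1 was higher, at 71.8 against 40.9. The median of the same 22 members was 0.05 in the untreated pair, and their summed signal was 4297 in treated fusion cells, against 8011 in treated IL3 cells and 7684 in untreated fusion cells.

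Socs1, which STAT factors induce and which blocks JAK kinases in turn, took opposite sides with and without the drug. It was 5.63 in treated fusion cells, below the floor, and 76.7 in treated IL3 cells, at least 3.82-fold lower. Without the drug it was 207 in fusion cells and 85.0 in IL3 cells, 2.44-fold higher. With the floor at the 60th percentile the treated log2 ratio of Socs1 was -0.85, under 2-fold. Rab15, a gene of vesicle transport, was the other gene past 2-fold in opposite directions, at 14.9 and 41.5 with the drug and 40.3 and 6.95 without it. For Rab15 the level in IL3 cells itself differed by drug, and each of its pairs had 1 array below the floor.

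Genes of the ERK pathway were lower in part. Of 27 measured members 6 were at least 2-fold lower and 1 higher, with a median of -0.27, and 10 ratios had 1 array below the floor. Dusp6, an ERK phosphatase that ERK induces, was 97.0 in treated fusion cells and 289 in treated IL3 cells, and without the drug the levels were 278 in fusion cells and 281 in IL3 cells. Spred1, a RAS-ERK inhibitor, was 184 against 451, and Ier2, an immediate early gene, was 148 against 361. The higher member was Dusp1, a phosphatase gene also induced by stress, at 65.0 in treated fusion cells and 29.1 in treated IL3 cells, and it was close to that without the drug, at 64.3 against 35.0. Spred2 was 58.0 against 153 on its brightest probe set, but the mean over its probe sets gave a log2 ratio of 0.04.

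Other lower genes with large ratios lay outside these lists. Pik3cd encodes the PI3K catalytic subunit of leukocytes, and it was 81.4 in treated fusion cells and 411 in treated IL3 cells, with log2 ratios of -2.43 to -2.08 over 3 probe sets. Pik3cg, another catalytic subunit gene, was 184 against 392. Tnfrsf12a, the receptor for the cytokine TWEAK, was 7.84 against 108, at least 5.39-fold lower. With the floor at the 40th percentile its log2 bound was -3.51, beyond the -2.72 of Id1. Metrnl, which encodes a secreted protein, was 26.1 in treated fusion cells and 144 in treated IL3 cells, and 244 against 158 without the drug. F2rl2, a protease-activated receptor gene, had the same order, at 81.9 against 326 with the drug and 527 against 318 without it. For Clcn5, a chloride transporter gene at 42.2 against 230, the other probe set gave a log2 ratio of -0.56.

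**Figure D2:**
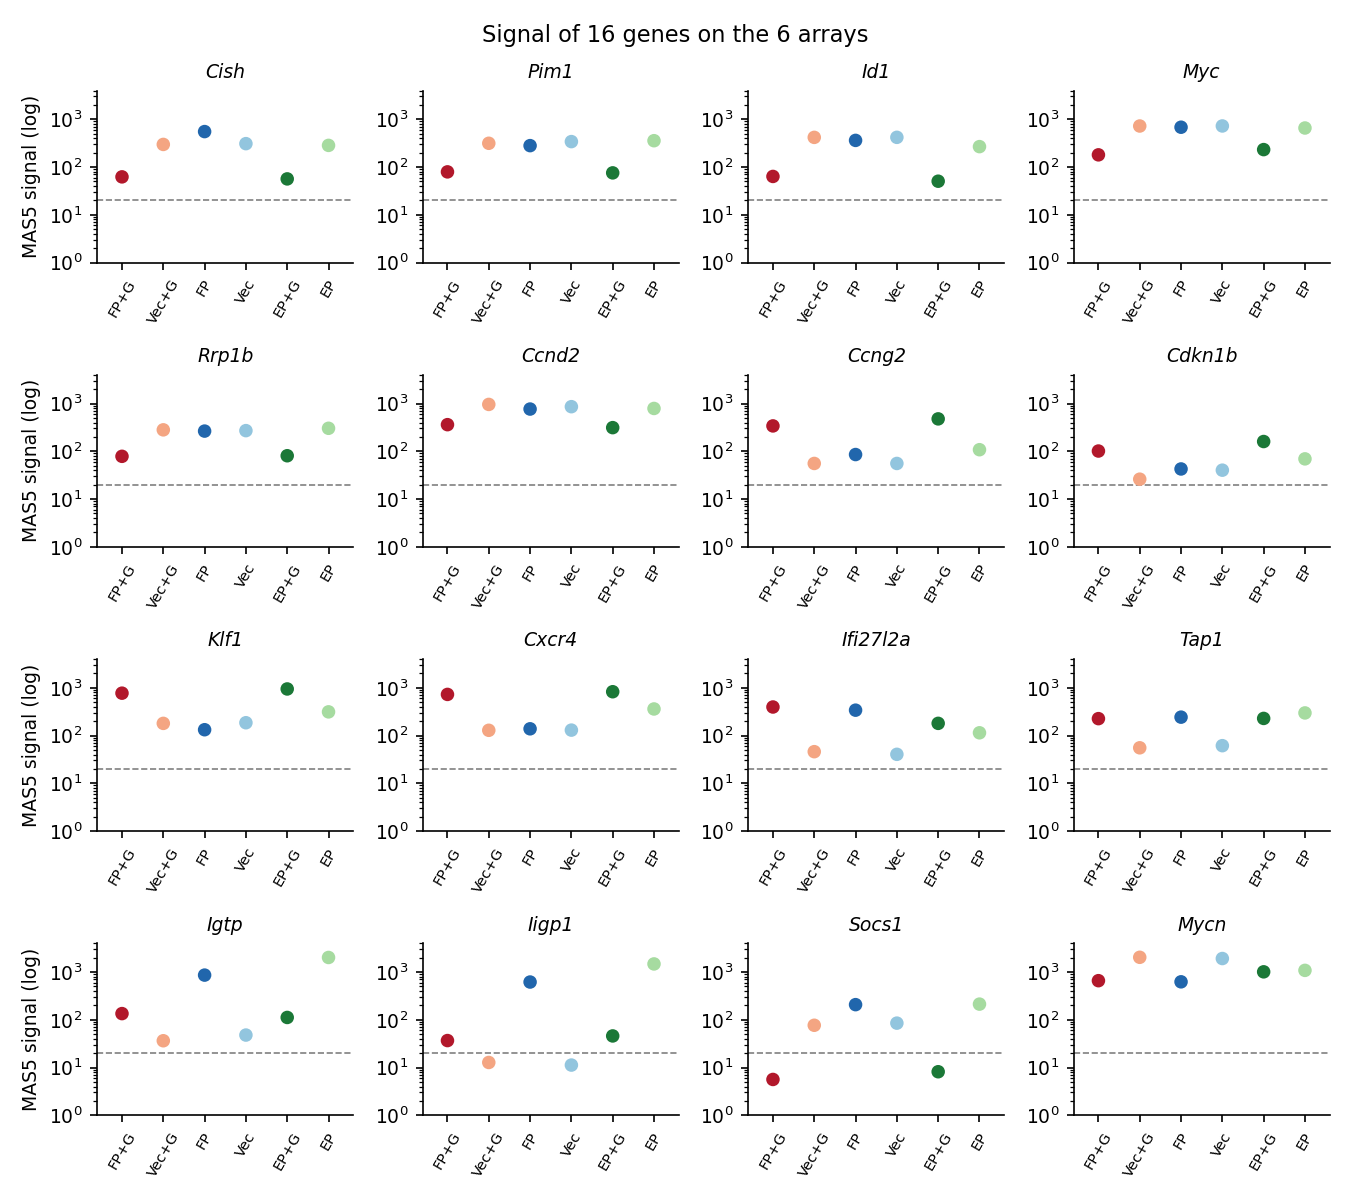
MAS5 signal (vertical axis, log scale) of 16 genes on the 6 arrays, 1 point an array; the dashed line is the floor of 20.1. FP is FIP1L1-PDGFRA, Vec the vector line in IL3, EP ETV6-PDGFRB, and +G marks Glivec. In Cish, Pim1, Id1, Myc, Rrp1b, Ccnd2 and Socs1 the treated fusion array lies below the treated vector array, in Ccng2, Cdkn1b, Klf1, Cxcr4, Ifi27l2a, Tap1, Igtp and Iigp1 above it, and Mycn is lower with and without the drug.

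Myc was 180 in treated fusion cells and 722 in treated IL3 cells, 4.01-fold lower, and without the drug it was 681 against 724. MYC is a transcription factor that drives growth and ribosome production by binding CACGTG with its partner MAX. Of 10 measured members of its network 2 were at least 2-fold lower and 2 higher. The higher ones were Mxd4 and Mxd3, which encode proteins that compete with MYC for MAX, at 131 and 61.5 in treated fusion cells and 57.1 and 27.9 in treated IL3 cells. Mycn, a relative of Myc, was lower in fusion cells irrespective of the drug, at 658 against 2032 with it and 623 against 1915 without it. One of the 3 probe sets of Mycn gave a log2 ratio of -0.02.

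Genes of ribosome biogenesis were lower across most of the list. Of 62 measured members 59 had a log2 ratio below 0, 17 were at least 2-fold lower and 0 at least 2-fold higher, with a median of -0.74. In the untreated pair the median was -0.05 and 0 of them passed 2-fold in either direction. Rrp1b, a nucleolar protein gene, was 78.4 in treated fusion cells and 281 in treated IL3 cells. Ppan, needed for large subunit assembly, was 75.3 against 265, Polr1b, a subunit of RNA polymerase I, was 47.9 against 157, and Nolc1, a nucleolar chaperone gene, was 274 against 747. In the untreated pair each of these 4 genes was within 1.21-fold, with Rrp1b at 264 in fusion cells and 270 in IL3 cells. Ribosomal protein genes, whose products the nucleolus assembles, were not part of that shift. Of 33 measured, 0 passed 2-fold, and the median was 0.01.

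The pattern CACGTG, searched on both strands, stood in 38 of 176 promoters (21.6%) of 133 lower genes with a RefSeq promoter. It stood in 7.36% of the promoters of higher genes, in 10.8% of those of all measured genes and in 7.15% of all 32851 promoters of the table. Among all measured ribosome biogenesis genes, lower or not, 12 of 57 promoters (21.1%) held it. Among the lower ones 4 of 16 promoters (25%) did, namely those of Nop2, Grwd1, Tsr1 and Wdr43. Nop2 encodes a methyltransferase of the large ribosomal RNA and was 85.6 in treated fusion cells and 199 in treated IL3 cells. Its promoter and that of Pim1 are shown as examples with the match in capitals, Nop2 being picked after its values were seen. They are chr6:125131633-125131932 for Nop2 and chr17:29492835-29493134 for Pim1, both on the plus strand of GRCm38.p6, with the matches at bases 191 and 193.
Nop2: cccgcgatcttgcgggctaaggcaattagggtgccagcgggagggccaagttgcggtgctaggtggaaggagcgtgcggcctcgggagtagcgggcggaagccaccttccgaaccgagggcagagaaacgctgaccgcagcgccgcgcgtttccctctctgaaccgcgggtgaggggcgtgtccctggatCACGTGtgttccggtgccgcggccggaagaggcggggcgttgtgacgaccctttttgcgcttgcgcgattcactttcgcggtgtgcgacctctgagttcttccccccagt
Pim1: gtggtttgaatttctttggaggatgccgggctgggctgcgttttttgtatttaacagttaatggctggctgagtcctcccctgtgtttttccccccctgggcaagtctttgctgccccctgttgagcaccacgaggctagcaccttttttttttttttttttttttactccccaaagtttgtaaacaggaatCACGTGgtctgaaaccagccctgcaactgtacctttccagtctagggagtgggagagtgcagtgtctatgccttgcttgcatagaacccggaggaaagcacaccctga
A match of 6 letters is a description of the sequence and not a measured site.

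Few metabolic and translation genes passed 2-fold. Of 28 translation factor and aminoacyl-tRNA synthetase genes 26 had ratios below 0 and 2 passed 2-fold, the initiation factor gene Eif1a at 138 in treated fusion cells and 356 in treated IL3 cells, and Eef1e1 at 248 against 576. Of 21 polyamine and nucleotide synthesis genes 18 had ratios below 0, with a median of -0.44. Srm, the spermidine synthase gene, was 293 in treated fusion cells and 1004 in treated IL3 cells, while Odc1, the first enzyme of the same pathway, was 561 against 842. Among 21 glycolysis and glucose uptake genes 4 were at least 2-fold lower, the glucose transporter gene Slc2a3 (462 against 1232), the hexokinase gene Hk2 (75.5 against 171), the lactate transporter gene Slc16a1 (328 against 744) and Pfkfb3 (14.9, below the floor, against 43.1). The other measured probe set of Pfkfb3 gave a log2 ratio of -0.29, and with the floor at the 60th percentile the ratio of Pfkfb3 was -0.02. The median of that list was -0.25, so most of its members lay under 2-fold. Sterol and fatty acid synthesis genes had a median of 0.05, with 1 of 27, the elongase gene Elovl6, past 2-fold at 198 against 423. The transferrin receptor gene Tfrc, which imports iron, was 542 in treated fusion cells and 981 in treated IL3 cells. Oxidative phosphorylation genes had a median of 0.12 and 0 of 43 past 2-fold. With scaling to the hybridization controls the sterol list had a median of -0.06 and the ribosomal protein list one of -0.10.

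**Figure D3:**
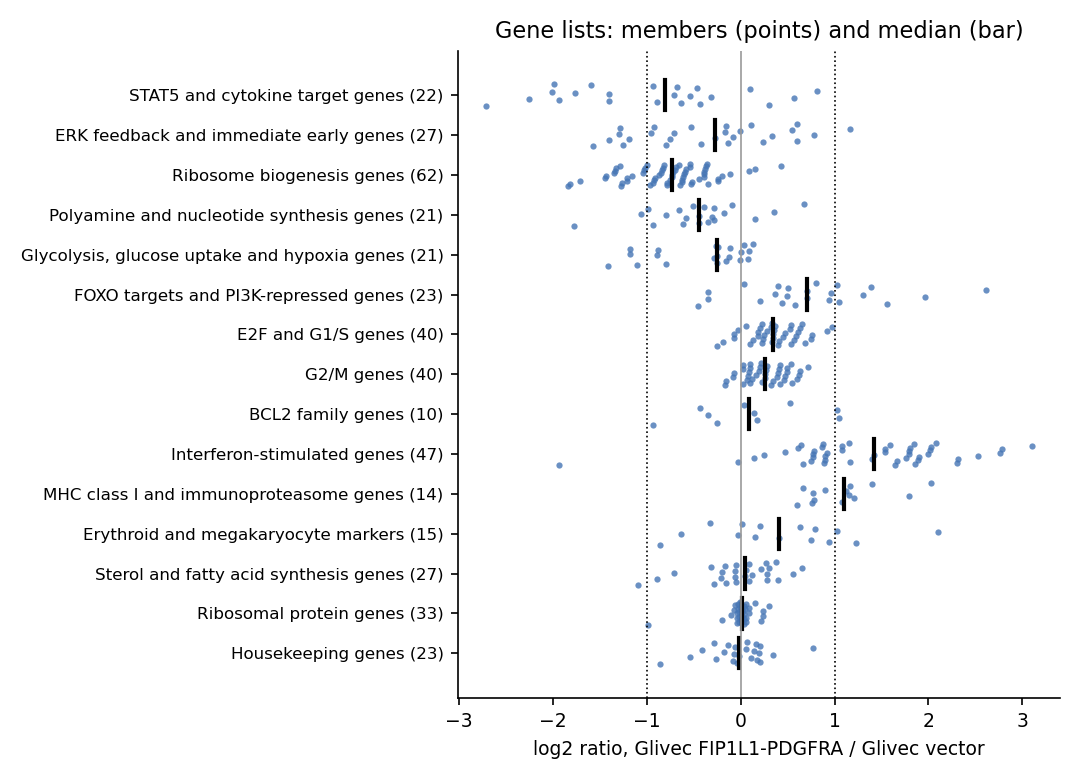
Log2 ratio of treated FIP1L1-PDGFRA over treated vector cells (horizontal axis) for the measured members of 15 gene lists, 1 point a gene, with the list median as a bar and the number of members in brackets. Dotted lines mark 2-fold. Ribosome biogenesis and STAT5 target genes lie mostly left of 0, interferon-stimulated, MHC class I and FOXO target genes mostly right of it, and ribosomal protein and housekeeping genes around it.

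FOXO factors are held out of the nucleus by PI3K and AKT signalling and switch on genes of growth arrest. Their targets and other genes repressed by PI3K were higher in treated fusion cells, with 7 of 23 measured members at least 2-fold higher, 0 lower and a median of 0.71. Ccng2, a cyclin of resting cells, was 339 in treated fusion cells and 55.6 in treated IL3 cells, 6.11-fold higher, and 85.4 against 55.5 without the drug. Cdkn1b, which encodes the cell cycle inhibitor p27, was 101 against 26.0. Without the drug Cdkn1b was 42.6 in fusion cells and 40.2 in IL3 cells, so the treated IL3 array was lower than the untreated one. Gadd45a, Trp53inp1 and Ddit4, genes of arrest and stress responses, were 84.5, 156 and 188 in treated fusion cells and 28.7, 59.8 and 76.1 in treated IL3 cells. The median of the list in the untreated pair was 0.05. Pdcd4, which restrains translation, was 313 in treated fusion cells and 123 in treated IL3 cells, picked after its values were seen.

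Genes of cell death belonged to the same list in part. Bbc3, which encodes the death protein PUMA, was 115 in treated fusion cells and 55.3 in treated IL3 cells, and 60.3 against 52.1 without the drug. Bcl2l11, which encodes BIM, was 336 against 165, 2.03-fold higher, but it was already 301 in untreated fusion cells against 156 in untreated IL3 cells. Bcl2l1, which encodes the survival protein BCL-XL, was 66.0 against 126 with the drug and 76.0 against 129 without it. The 5 probe sets of Bcl2l11 gave treated log2 ratios from 0.38 to 1.30, and the 3 measured ones of Bcl2l1 from -1.37 to -0.61. On the 1 probe set read for each of Bcl2l11 and Bcl2l1, the fusion line differed from the IL3 line by close to the same ratio with and without the drug. That did not hold for Bbc3, with log2 ratios of 1.05 and 0.21. Of the 10 BCL2 family genes measured, Bbc3 and Bcl2l11 were past 2-fold, and the median was 0.09, or -0.03 with hybridization control scaling.

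Of 40 E2F and G1/S genes 35 had ratios above 0, 0 passed 2-fold, and the median was 0.34. In 39 of the 40 the ratio was above that of the untreated pair, whose median was -0.16, and over all genes measured in both pairs that was so for 3515 of 6608. The thymidine kinase gene Tk1 was 440 in treated fusion cells and 224 in treated IL3 cells, and the repressor gene E2f8 was 188 against 99.4. Of 40 G2/M genes 36 had ratios above 0, with a median of 0.26 and 0 past 2-fold, and the spindle gene Nusap1 was 721 against 437. Both medians lie inside the central 95% of ratios of the vector line with over without the drug. That interval is a spread of single genes and not of list medians. In that line the E2F median was 0.04 and the G2/M median 0.03. With scaling to the hybridization controls the E2F median was 0.23 and the G2/M median 0.14.

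Among erythroid and megakaryocyte markers 3 transcription factor genes were past 2-fold on the higher side, while other members lay on the lower side. Klf1, the master regulator of globin genes, was 770 in treated fusion cells and 180 in treated IL3 cells, and 132 against 185 without the drug. Nfe2, part of a factor that binds globin control regions, was 996 against 425, and Gata1 was 725 against 355. These were the 3 of 15 measured members past 2-fold, with a median of 0.41 against -0.21 in the untreated pair. The list also had 4 members with ratios below 0, among them Tfrc, at 542 in treated fusion cells and 981 in treated IL3 cells, and the platelet factor gene Pf4, at 26.9 against 41.7. The summed signal of the list was 5889 in treated fusion cells and 4573 in treated IL3 cells, and 9 of its 24 members with a probe set were below the floor on all 6 arrays.

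Several of the highest genes had none of these roles. Cxcr4, the receptor for the chemokine CXCL12, was 725 in treated fusion cells and 129 in treated IL3 cells, and 138 against 130 without the drug. Col5a1, a collagen gene, was 1173 against 268, and 252 against 269 without the drug. Its 3 probe sets gave log2 ratios of 1.33 to 2.13. The methyltransferase-like gene Mettl7a1 was 278 against 63.6, and Plxdc1, a receptor-like membrane protein gene, was 94.6 against 18.8, at least 4.71-fold higher. Ddit3, which encodes the stress factor CHOP, was 129 in treated fusion cells and 24.8 in treated IL3 cells, while the median of the ATF4 and amino acid genes to which it belongs was -0.14. Nfkbia and Tnfaip2 were the 2 of 13 NF-kappaB genes past 2-fold, at 640 and 200 in treated fusion cells and 304 and 84.5 in treated IL3 cells. The 4 probe sets of Nfkbia gave log2 ratios from 0.11 to 1.07.

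Interferon-stimulated genes made up much of the higher side. The genes that interferons switch on encode antiviral enzymes, GTPases and parts of antigen presentation. Of 47 measured members 29 were at least 2-fold higher in treated fusion cells, 1 was lower (Socs1, which is also in the STAT5 list), and the median was 1.42. In 15 of the 47 ratios 1 array was below the floor, so those folds are lower bounds. Ifi27l2a, an interferon-induced membrane protein gene, was 395 in treated fusion cells and 45.9 in treated IL3 cells, the largest ratio at the floor used. Irf7, the factor that amplifies interferon production, was 138 against 8.67, at least 6.89-fold higher, and Oasl2, of the oligoadenylate synthetase family, was 136 against 5.29, at least 6.77-fold higher. With the floor at the 40th percentile these bounds were 3.87 and 3.84 on the log2 scale, above the 3.11 of Ifi27l2a.

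Most of these genes were higher still in the untreated pair. The median of the 47 was 2.48 without the drug, and in 40 of 47 the treated ratio was below the untreated one. Igtp, a GTPase that acts on vacuoles of intracellular pathogens, was 135 in treated fusion cells and 36.4 in treated IL3 cells, and 861 against 47.8 without the drug. Iigp1, of the same family, was 36.7 against 12.8, at least 1.83-fold higher, and 617 against 11.3 without the drug, at least 30.7-fold higher. Ifit1, an antiviral RNA-binding protein gene, was 30.7 against 1.29, and 457 against 1.97 without the drug. Rsad2, the antiviral enzyme viperin, was below the floor on both treated arrays and 252 in untreated fusion cells. Not all members followed that pattern. Ifi27l2a was 339 against 40.4 without the drug, so its ratio was 8.62-fold with it and 8.40-fold without it.

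The promoters of Igtp and Ifit1 are shown because the interferon response element, searched here as GAAA, any 2 bases and GAAA again on both strands, stands in both. The pattern stood in 19 of 45 promoters (42.2%) of the measured interferon-stimulated genes, and in 10 of 26 (38.5%) of those at least 2-fold higher. The share was thus no larger among the higher members than in the list as a whole. It stood in 9.82% of the promoters of all higher genes, in 1.70% of those of lower genes, in 3.21% of those of measured genes and in 3.44% of all promoters. TTCNNNGAA, which also fits interferon gamma activated sites, stood in 26.7% of the promoters of the interferon list, in 6.79% of those of measured genes and in 8.30% of all promoters. In Igtp, at chr11:58199306-58199605, TTCNNNGAA begins at base 206 and the interferon element at base 217. In Ifit1, at chr19:34640639-34640938, the reverse complement of that element begins at bases 147 and 166. Both stretches are on the plus strand of GRCm38.p6, and none of the matches in capitals overlap.
Igtp: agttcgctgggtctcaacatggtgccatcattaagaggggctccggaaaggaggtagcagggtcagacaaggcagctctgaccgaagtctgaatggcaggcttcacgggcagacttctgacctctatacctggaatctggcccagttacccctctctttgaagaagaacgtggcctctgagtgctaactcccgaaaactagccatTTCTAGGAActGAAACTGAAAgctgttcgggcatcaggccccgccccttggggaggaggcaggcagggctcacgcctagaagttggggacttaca
Ifit1: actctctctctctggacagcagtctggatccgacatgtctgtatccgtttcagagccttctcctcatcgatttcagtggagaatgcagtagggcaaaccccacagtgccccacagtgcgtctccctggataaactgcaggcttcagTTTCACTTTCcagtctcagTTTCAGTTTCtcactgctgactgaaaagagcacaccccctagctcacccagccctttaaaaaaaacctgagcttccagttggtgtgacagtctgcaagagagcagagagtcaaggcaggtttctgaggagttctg
Igtp and Ifit1 had large ratios without the drug. With it Igtp was 3.70-fold higher and Ifit1 at least 1.53-fold. The fold of Ifit1 is a lower bound set by the floor, so the 2 treated ratios cannot be ranked. With the floor at the 40th percentile the treated log2 bound of Ifit1 was 1.69.

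**Figure D4:**
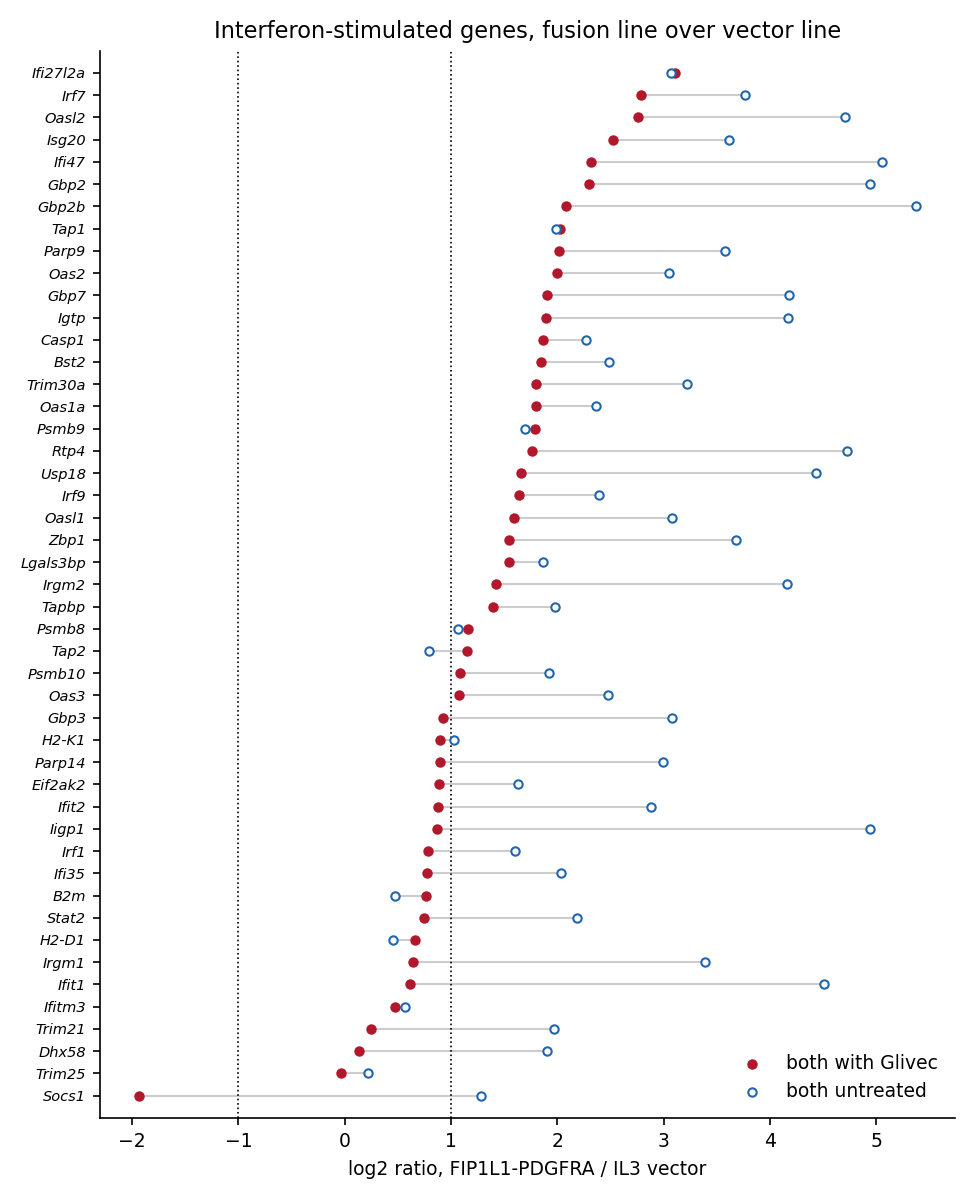
Log2 ratio of FIP1L1-PDGFRA over vector cells (horizontal axis) with Glivec on both sides (filled red) and without it (open blue), 1 line a gene, for the 47 measured interferon-stimulated genes. Dotted lines mark 2-fold. The red point lies left of the blue one for most genes, close to it for Ifi27l2a, Tap1 and Psmb9, and on the other side of 0 for Socs1.

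Genes of MHC class I presentation held nearly the same ratio with and without the drug in several cases. All 14 measured members had ratios above 0, 8 were at least 2-fold higher, and the median was 1.10, against 1.46 without the drug. The list shares members with the interferon list, Tap1 and Psmb9 among them, and the 2 lists together held 52 measured genes. They are therefore not separate sets of genes. Tap1, which carries peptides into the endoplasmic reticulum, was 226 in treated fusion cells and 55.3 in treated IL3 cells, and 242 against 61.3 without the drug. Psmb9, a subunit of the immunoproteasome, was 1100 against 318, and 992 against 306 without the drug. Tapbp, which bridges the transporter and class I molecules, was 744 against 283, and 960 against 243 without the drug. Tapbpl, of the same list, was at least 2.30-fold higher with the drug and at least 5.66-fold without it. The treated ratio was above the untreated one in 7 of the 14 genes and below it in the other 7. The second probe set of Tap1 gave a log2 ratio of 0.21. The light chain gene B2m was 3234 in treated fusion cells and 1899 in treated IL3 cells.

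Set against the untreated pair, which shares no array with the treated one, the 312 genes past 2-fold fell into groups of unequal kind. Without the drug 122 of 6719 genes (1.82%) were at least 2-fold higher in fusion cells than in IL3 cells and 22 (0.327%) at least 2-fold lower, 144 (2.14%) in all. Of the genes past 2-fold with the drug, 55 were past it in the same direction without it, which is 17.6% of the 312 and 38.2% of those 144. These were 47 of the 151 higher genes (31.1%) and 8 of the 161 lower genes (4.97%). Across the 6608 genes measured in both pairs the log2 ratios correlated at r = 0.32 (Spearman 0.19), a description over genes that are not independent replicates.

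The 47 genes higher with and without the drug were mostly of the interferon and MHC class I lists, which held 30 of them (63.8%), against 52 of all 6758 measured genes (0.769%). The lists were chosen with these results known, so the share is a description. Among the others, picked after their values were seen, were Adar, which edits double-stranded RNA, at 103 in treated fusion cells and 45.0 in treated IL3 cells, the ISG15 ligation genes Uba7 (135 against 52.6) and Ube2l6 (54.2 against 19.5), the nuclear body gene Sp100 (66.7 against 22.3) and the cytokine gene Il15 (76.4 against 22.9). Adar, Uba7, Ube2l6 and Sp100 are also known as interferon-inducible. Sla, an adaptor that dampens receptor signalling, was 217 in treated fusion cells and 33.1 in treated IL3 cells, and 85.2 against 24.5 without the drug. Sla was 43.3 in treated ETV6-PDGFRB cells, close to treated IL3 cells.

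The 8 genes lower with and without the drug were Mycn, Dok2, Lat, Padi2, Ptgir, Slc14a1, Tuba8 and Rai1. Dok2, an adaptor that restrains kinase signalling, was 197 in treated fusion cells and 545 in treated IL3 cells, and 223 against 516 without the drug. Lat, an adaptor of T cell and mast cell receptors, was 101 against 273, and 115 against 301 without the drug. Padi2, a protein deiminase gene, and Tuba8, a tubulin gene, had treated log2 ratios of -1.42 and -1.05 and untreated ones of -1.39 and -1.03. Slc14a1 was 31.0 in treated fusion cells and 65.0 in treated IL3 cells, and 17.6, below the floor, against 71.0 without the drug, so not every level was alike with and without the drug. Lat and Zap70 were the 2 of 3 measured T and NK cell markers past 2-fold. Unlike Lat, Zap70 was past it with the drug only, at 14.5, below the floor, against 52.1, and at 48.7 against 60.6 without the drug. With the floor at the 60th percentile the treated log2 ratio of Zap70 was -0.29. Of the 21 markers with a probe set 17 were below the floor on all 6 arrays. The summed signal of the list was 1786 in treated fusion cells and 2993 in treated IL3 cells, most of it from Gzmb at 1584 against 2592.

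The genes past 2-fold with the drug only numbered 251, of which 100 were higher and 151 lower. The lower ones had a median log2 ratio of -1.29 with the drug and -0.17 without it, and the higher ones 1.20 and 0.08. Myc, Pim1, Id1, Cish, Dusp6 and Rrp1b were in the lower set, of which 17 genes (11.3%) were in the ribosome biogenesis list, against 62 of all 6758 measured genes (0.917%), and Ccng2, Cxcr4, Col5a1 and Klf1 were in the higher set. A further 4 higher genes, Cdc42ep3, Tst, Klhl24 and Mettl27, were below the floor on both untreated arrays. In the other direction 74 genes were past 2-fold without the drug and, at the floor used, under 2-fold with it, 60 of them higher and 14 lower. A further 13 higher ones, Rsad2, Cxcl10, Mx1 and Ifit3 among them, were below the floor on both treated arrays. Those 73 higher genes included 21 (28.8%) of the interferon and MHC class I lists, such as Irgm1, at 90.9 in treated fusion cells and 58.4 in treated IL3 cells and at 607 against 57.9 without the drug. For Iigp1, Ifit1 and Gbp3 the treated ratio was a lower bound, so it does not show that the fold was under 2. With the floor at the 40th percentile their treated log2 bounds were 1.52, 1.69 and 2.01.

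**Figure D5:**
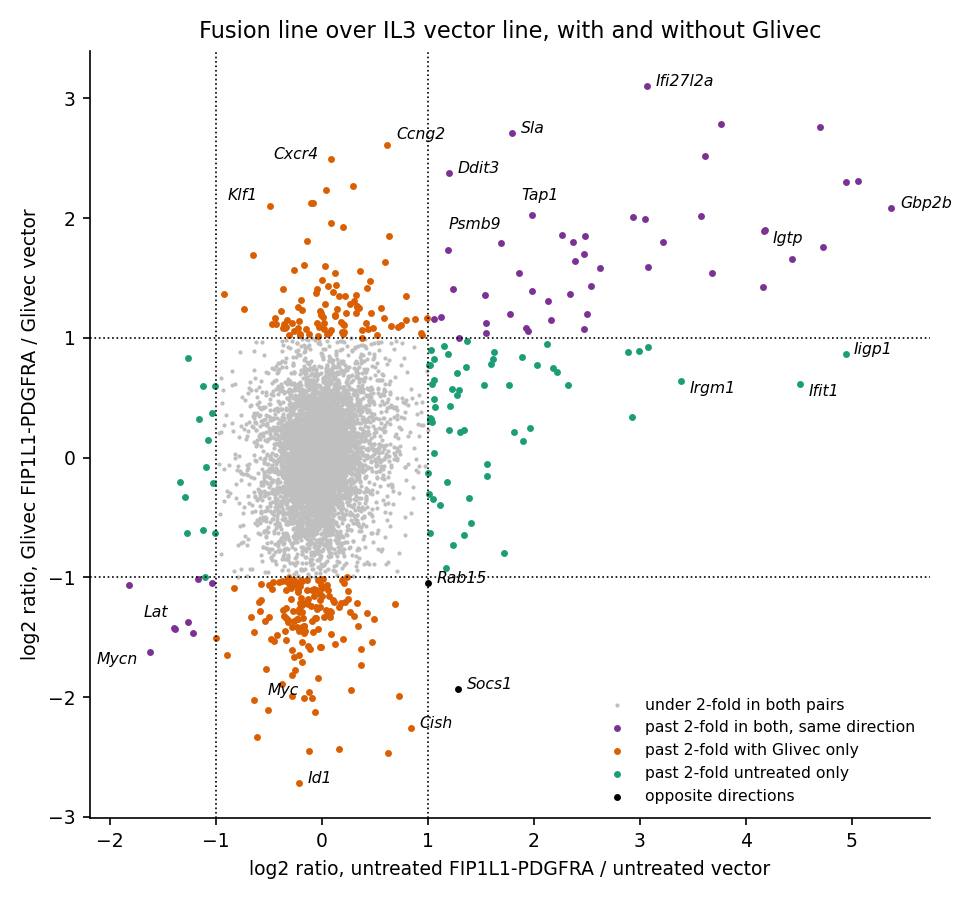
Log2 ratio of FIP1L1-PDGFRA over vector cells with Glivec on both sides (vertical axis) against the same ratio without Glivec (horizontal axis), 1 point a gene, for 6608 genes measured in both pairs. Dotted lines mark 2-fold, and colours give the side of the limit in each pair. Orange genes (100 higher, 151 lower) lie above and below the centre, purple genes (47 higher, 8 lower) in the corners, and Socs1 and Rab15 at lower right.

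The treated ETV6-PDGFRB array, set against the same treated IL3 array, gave values that were close for some of the leading genes and apart for others. Because both ratios share the IL3 array, they are given side by side only. The log2 ratio over treated IL3 cells was -2.72 in FIP1L1-PDGFRA and -3.05 in ETV6-PDGFRB cells for Id1, -2.26 and -2.40 for Cish, -2.01 and -1.64 for Myc, 2.61 and 3.10 for Ccng2 and 2.10 and 2.39 for Klf1. It was 3.11 and 1.97 for Ifi27l2a, 2.71 and 0.39 for Sla and -1.99 and -3.02 for F2rl2, and, as bounds, 2.30 and 3.55 for Gbp2 and 2.27 and 0.83 for Clcn3. Set directly against each other, the treated FIP1L1-PDGFRA array had 41 of 6763 genes (0.606%) at least 2-fold higher than the treated ETV6-PDGFRB array and 45 (0.665%) at least 2-fold lower. The mast cell protease genes Cma1 and Cpa3 were 313 and 168 in treated FIP1L1-PDGFRA cells, against 3615 and 1060 in treated ETV6-PDGFRB cells, and 211 and 164 in treated IL3 cells. The macrophage marker Adgre1 was 174 in treated FIP1L1-PDGFRA cells and 46.2 in treated ETV6-PDGFRB cells. Here FIP1L1-PDGFRA cells stood nearer to the IL3 cells, in which Adgre1 was 305.

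Receptors for IL3 did not differ by 2-fold. Il3ra, the alpha chain, was 44.4 in treated fusion cells and 34.7 in treated IL3 cells. The beta chain genes Csf2rb and Csf2rb2 were 1580 and 1737 against 1284 and 1537. They are close copies whose probe sets may share signal. Of 30 measured cytokine receptor and JAK-STAT genes 1 was at least 2-fold higher, the interferon gamma receptor gene Ifngr1 at 71.1 against 34.0, and 1 lower, Il4ra. Housekeeping genes had a median of -0.02 and 0 of 23 past 2-fold, with Actb at 3637 in treated fusion cells and 4104 in treated IL3 cells, and Hprt at 958 against 922.

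The remaining lists held few genes past 2-fold. Of 20 p53 targets 2 were higher, Trp53inp1 and Bbc3, and 1 lower, the nuclease gene Aen at 63.7 in treated fusion cells and 146 in treated IL3 cells. Of 38 lysosome and autophagy genes 1 was higher, the protease gene Ctss at 49.7 against 6.71, at least 2.47-fold. Of 35 actin, SRF and adhesion genes 1 was lower, the tropomyosin gene Tpm4 at 74.9 against 190. The chaperone list had 0 of 25 past 2-fold and a median of -0.15. Among 17 CDK inhibitors, G1 cyclins and kinases the genes past 2-fold were Ccng2, Cdkn1b and Ccnd2, already described.

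Markers of other cell types were mostly absent. Of 20 mast cell, basophil and eosinophil markers with a probe set 11 were below the floor on all 6 arrays, and the summed signal was 3849 in treated fusion cells and 3573 in treated IL3 cells. The 1 of 7 measured past 2-fold was the transcription factor gene Mitf, at 77.0 against 156. Mitf was the 1 member with a ratio below 0, the other 6 had ratios above 0, and the median was 0.15. Of 23 myeloid markers 17 never exceeded the floor, 0 of 6 measured passed 2-fold, and the summed signal was 1217 in treated fusion cells and 1578 in treated IL3 cells. Of 17 fibroblast and stromal markers 13 were below the floor on all 6 arrays, and Col5a1 was the 1 of 4 measured past 2-fold. Whether other cells had a part in any of these differences was not tested.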

How the data were processed

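The authors deposited 1 linear intensity for each probe set on each array. According to the submitters' processing notes, GCOS 1.4.0 and MAS5 produced it. The values show that the authors had scaled each array, since the mean after trimming 2% at each end was 100.0 on all 6. Detection calls are not given in the sources used here. Of 22690 probe sets 20393 had 1 gene symbol in the platform annotation, 691 several and 1606 none. The 64 control probe sets were not read as genes, which left 20380 probe sets with 1 symbol, but they were kept when the floor was computed. Through the RefSeq table of GRCm38.p6 0 symbols changed. Each of 12393 genes was read from the probe set whose mean log2 signal was highest. The floor came from the 50th percentile of each array, of which the median was taken, and a ratio was computed where at least 1 array of a pair exceeded it. Per array, 49.8% to 50.6% of probe sets did.

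No test was run, because each group had 1 array, which limits the precision. The comparison, the 32 gene lists (1108 entries, 958 matched, 736 measured) and the genes named were chosen with earlier results of these data known. Named were the 15 highest and 15 lowest genes with a signal of at least 4 times the floor, the largest 4 of each list, the largest 6 of each class and a set of fixed genes, and other genes named, such as Id2, Mcl1, Rgs1, Dusp1, Pik3cg, Cpa3, Actb and Hprt, were picked after their values were seen. Alternatives were other floors, a pseudocount of 16, other scalings, the mean over probe sets and a 3-fold limit. Promoters came from RefSeq, GRCm38.p6. Python 3.11.15, numpy 2.4.6, pandas 2.3.3 and matplotlib 3.10.9 were used, and the steps were tested on simulated data.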

Additional observations from a re-analysis of the deposited data

Results flagged for a closer look

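Socs1 stood out because its ratio of fusion over IL3 cells was past 2-fold in opposite directions with and without the drug, with a log2 ratio of -1.93, a bound because the treated fusion array was below the floor, and 1.29 without the drug. With the floor at the 60th percentile its treated log2 ratio was -0.85, under 2-fold, so that call was lost. Rab15 was also past 2-fold in opposite directions, with a log2 ratio of -1.05 with the drug and a 2.01-fold higher level without it, again with 1 array of each pair below the floor, and all its signals were below the floor of 42.6 at the 60th percentile. With 1 array in each group these differences were not tested.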

How the results depend on the processing

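No paired analysis was possible because each group had 1 array and the labels give no replicate numbers, and no replicate could be left out. The counts of 151 higher and 161 lower genes became 41 and 30 at a 3-fold limit. With a floor at the 60th percentile 98 genes were higher, and 35 genes, in place of 55, were past 2-fold in the same direction with and without the drug. The 74 genes past 2-fold without the drug only became 126 when the floor was the 40th percentile, and 49 with log2(signal + 16). The other alternatives kept these 4 counts within 1.5 times. Of 78 named genes past 2-fold, 9 were under it with the floor at the 60th percentile, 8 with the pseudocount, 5 with hybridization control scaling, 8 of 74 with the mean over probe sets, and 0 with quantile normalization, with scaling to the mean or with the lower floor. Spred2 reversed, to 0.042, with the mean over probe sets. The interferon median was 1.04 with the floor at the 60th percentile and 1.18 with the mean over probe sets, and the STAT5 target median was -0.56 and the FOXO target median 0.51 with the mean over probe sets; the causes were not tested. Signals near the floor limit the folds of dim genes.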
